A study of Mus musculus with 2 samples.

Results

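The transcripts of 9 genes of transforming growth factor beta (TGF-beta) signalling were followed in the ureter, the muscular tube between kidney and bladder, of mouse embryos at stage E18.5. They are the ligands Tgfb1, Tgfb2 and Tgfb3, the latency proteins Ltbp1 and Ltbp2, and the response genes Tgfbi, Ctgf, Cyr61 and Thbs1. Members were all gene spots of the array whose gene name in the scanner files is 1 of these 9, which gave 28 spots for 10 probes. All 9 passed the filter on dim probes, among 23419 genes that did so, and each was well above background in every RNA measured. Newer symbols are Ccn2 for Ctgf and Ccn1 for Cyr61.

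Total RNA of dissected ureters of the NMRI strain was hybridised to 2 Agilent 2-colour arrays, each with RNA labelled cDKO in one dye and control RNA in the other, so that each array gives 1 ratio. Embryos labelled cDKO carried a Cre allele at Tbx18, written Tbx18(cre/+), with both copies floxed of the T-box factor genes Tbx2, written Tbx2(fl/fl), and Tbx3, written Tbx3(fl/fl). Tbx18 is active in the mesenchyme around the ureteric epithelium, and recombination is limited to cells with Cre and their descendants. Controls had Tbx18(+/+) with Tbx2(fl/?) and Tbx3(fl/?), so they too carried floxed alleles of Tbx2 and Tbx3 but no Cre, and the second allele of each is not given. Replicate 1 held male RNA with cDKO in the red dye, and replicate 2 held female RNA with cDKO in green, so sex, dye and replicate cannot be told apart. The labels give neither the number of embryos behind an RNA nor a statement that the arrays stand for separate litters. P-values therefore rest only on the spread between these arrays, which may be technical. In the test used, that spread comes mostly from all kept probes together and less from a gene's own 2 ratios.

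TGF-beta ligands are secreted in an inactive complex with their own propeptide, and latent TGF-beta binding proteins such as LTBP1 tie that complex to fibrillin and other matrix. Once released, the ligand binds the receptors TGFBR2 and TGFBR1, whose kinase activity sends SMAD proteins to the nucleus, where genes of matrix, adhesion and feedback control are switched on. TGFBI, CTGF, CYR61 and THBS1 are secreted matrix-associated proteins whose genes respond to the pathway. Ctgf and Cyr61 are also known targets of YAP and TAZ, and thrombospondin 1, the product of Thbs1, can activate latent TGF-beta.

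A probe of Tgfb1 and 1 of Tgfb2 are shown because the family members resemble each other and a probe could detect more than its own transcript. They are 60 bases long and are printed 5′ to 3′, with capitals where the probe of Tgfb1 and the brighter probe of Tgfb2 hold the same base when aligned without gaps. Over the 41 bases of that alignment 28 are identical (68.3%), and the longest identical run has 7 bases. The other ligand probes were not compared, and no probe was aligned to the transcript of another ligand. Whether a probe detects such a transcript was therefore not tested.
Tgfb1: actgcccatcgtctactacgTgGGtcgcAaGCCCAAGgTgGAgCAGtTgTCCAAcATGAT
Tgfb2: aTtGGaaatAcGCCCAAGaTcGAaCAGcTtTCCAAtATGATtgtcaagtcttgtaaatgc
On mm9, the build of the files, the probe of Tgfb1 lies on the plus strand of chromosome 7, 26489877 to 26489936, and this probe of Tgfb2 on the minus strand of chromosome 1, 188449333 to 188449392. The other probe of Tgfb2 lies at 188447534 to 188447593 of the same chromosome. That of Tgfb3 is on chromosome 12, 87397804 to 87397863. An annotation of that build was not used here, so positions within exons are not given. Every probe carries the RefSeq accession of its gene in the files.

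Promoter windows of RefSeq on GRCm38.p6, from 250 bases before to 50 after a transcription start, were matched by symbol for 6 of the 9 genes in 7 windows, with 2 for Ltbp1. Tgfb3, Ctgf and Thbs1 were not among them. Both strands were searched for CAGAC and GTCTAGAC, which SMAD proteins can bind, GGAATG, which TEAD factors can bind, GGTGTGA, a T-box half-site, and the CArG box of serum response factor. None of these motifs contains another. CAGAC was in 6 of the 7 windows (all but that of Tgfb1) and in 49.6% of all 32851 windows. GGAATG was in 1 of the 7, that of Cyr61, and in 14.7% of all windows. GGTGTGA was in 0 of the 7 (3.98% of all), GTCTAGAC in 0 (0.213%) and the CArG box in 0 (1.63%), which says only that these letters are not in these windows.

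The 250 bases before the start are printed for the 2 members called higher below and for Cyr61, the only member with the TEAD motif. Capitals mark CAGAC or its reverse complement in Ltbp2 and Tgfb2, and the reverse complement of GGAATG in Cyr61. The windows are chr12:84876492-84876741, chr1:186705990-186706239 and chr3:145649986-145650235, all on the minus strand.
Ltbp2: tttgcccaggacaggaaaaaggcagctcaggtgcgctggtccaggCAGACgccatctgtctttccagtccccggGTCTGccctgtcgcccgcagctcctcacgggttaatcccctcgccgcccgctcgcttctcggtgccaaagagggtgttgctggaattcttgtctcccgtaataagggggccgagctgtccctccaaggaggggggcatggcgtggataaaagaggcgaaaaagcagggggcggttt
Tgfb2: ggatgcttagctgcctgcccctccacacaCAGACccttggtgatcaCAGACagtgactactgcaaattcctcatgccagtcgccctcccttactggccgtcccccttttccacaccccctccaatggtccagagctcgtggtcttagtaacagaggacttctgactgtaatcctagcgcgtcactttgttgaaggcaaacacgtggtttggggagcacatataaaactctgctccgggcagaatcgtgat
Cyr61: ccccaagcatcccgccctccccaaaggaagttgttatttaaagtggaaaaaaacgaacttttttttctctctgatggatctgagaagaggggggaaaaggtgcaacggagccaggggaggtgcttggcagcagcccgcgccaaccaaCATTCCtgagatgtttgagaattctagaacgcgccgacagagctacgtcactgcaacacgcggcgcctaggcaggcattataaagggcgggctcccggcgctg
The sites begin 205 and 176 bases before the start in Ltbp2, 221 and 204 in Tgfb2, and 103 in Cyr61.

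Of the 43020 gene spots, 72.1% to 81.6% exceeded background clearly in a given channel, and the median signal was 12.1 to 17.0 times the local background. Markers of the urothelium, the lining of the ureter, among them uroplakins and keratins, were well above background in every RNA (10 of 10). Neither Tbx2 nor Tbx3 showed a lower signal in cDKO RNA, and both passed the test described below as higher. Log2 ratios of Tbx2 were 1.04 in the male and 0.44 in the female comparison (limma adjusted p = 0.0273). Those of Tbx3 were 0.78 and 0.55 (limma adjusted p = 0.0305). Processed signals of Tbx2 were 3637 in the control and 7068 in the labelled cDKO RNA of males, and 3631 and 4977 in females. Those of Tbx3 were 11825 and 20270 in males, and 10716 and 15298 in females. The labels do not say which exons are lost, so these probes do not check the genotype, and directions given here follow the label of the RNA. Tbx18 stood at a log2 ratio of 0.81 on both arrays and was also called higher (limma adjusted p = 0.00778). The female transcript Xist had signals of 957 and 918 in female control and cDKO RNA and did not clear background in male RNA. In the female RNA labelled cDKO, Y-linked Ddx3y and Eif2s3y reached signals of 360 and 491, against 2851 and 5159 in male cDKO RNA. The female control RNA did not clear background for either, so that the labels of sex and RNA do not wholly fit there. The male array alone is therefore given beside each member's mean.

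In the RNA labelled cDKO, Ltbp2 and Tgfb2 rose, 1.74-fold and 1.54-fold. Tgfb1, Tgfb3, Tgfbi and Ltbp1 had mean ratios from 1.37-fold to 1.53-fold that did not pass the test. Thbs1 was at 1.19-fold, and Ctgf and Cyr61 at 0.920-fold and 0.905-fold, also without passing it. The test was limma's moderated test of the mean log2 ratio of both arrays against 0, called at a Benjamini-Hochberg adjusted p under 0.05 over all probes. On simulated data with 2 arrays this fit recovered nearly every probe changed 2-fold or more, but more of its calls were false than the threshold allows. The simulated noise was independent and scaled to the median SD between the arrays, which with 2 values for a probe understates the spread. The recovery therefore need not hold for these arrays. Smaller changes, the size seen in every member, were not simulated, so a member without a call cannot be taken as unchanged. By limma's test 2 of the 9 members were called higher and 0 lower, against 2.18% of all genes called higher and 2.27% called lower. At an unadjusted p under 0.05 there were 6 members, all with a ratio above 0, and 3751 of 23419 genes.

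Over the members the log2 ratio had a median of 0.51 (0.63 in the male and 0.37 in the female comparison), while the median over all genes was 0.0045. Ratios were above 0 on both arrays for 7 of the 9 members. The share was 31.7% over all genes and 35.3% over the 12900 genes at least as bright as the dimmest member. All 9 members had a higher ratio on the male than on the female array, as had 54.0% of all genes. With 1 array for each sex and dye this was not tested.

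**Figure D1:**
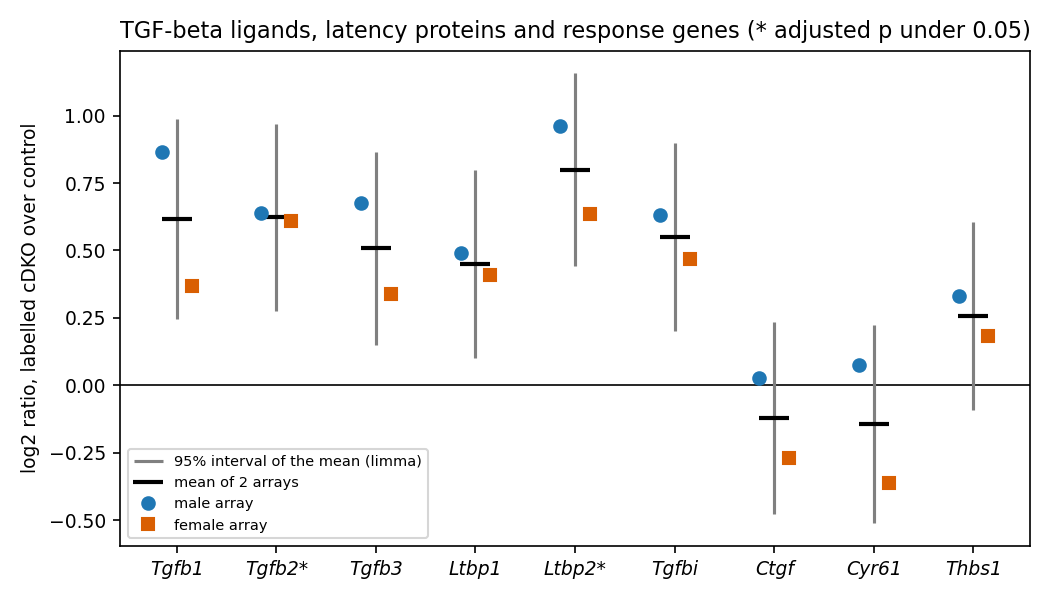
Log2 ratio of RNA labelled cDKO over control for each of the 9 genes on the male array (circles) and the female array (squares), with the mean of both (bars) and its 95% interval from limma (lines). Ltbp2 and Tgfb2, marked with an asterisk, passed an adjusted p of 0.05, and Ctgf and Cyr61 are the genes whose arrays lie on opposite sides of 0.

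Among the ligands, Tgfb2 had nearly the same ratio on both arrays. TGF-beta 2 is the family member best known from the heart, kidney and skeleton of the embryo. At its brighter probe the processed signal, the scanner program's background-subtracted and dye-normalized intensity, was 5618 in male control and 8233 in male cDKO RNA, and 4237 in female control and 6589 in female cDKO RNA. The cDKO RNA was the brighter on each array. The log2 ratio was 0.64 in the male and 0.61 in the female comparison, with a mean of 0.62 ± 0.020 (SD, n = 2; limma adjusted p = 0.0411).

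The other probe of Tgfb2 gave the same call. Its processed signals were 1940 and 3034 in male control and cDKO RNA, and 1592 and 2443 in female control and cDKO RNA. The log2 ratios were 0.67 and 0.59, with a mean of 0.63 ± 0.062 (SD, n = 2; limma adjusted p = 0.0394). Both probes read the same RNAs, so they are no independent replicates.

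Tgfb1, the ligand with the widest role in fibroblasts and immune cells, differed more between the arrays. Its processed signals were 484 in male control and 943 in male cDKO RNA, and 435 in female control and 576 in female cDKO RNA. The log2 ratio was 0.86 in the male and 0.37 in the female comparison, with a mean of 0.62 ± 0.35 (SD, n = 2). It missed the threshold (limma adjusted p = 0.0641), and the 95% interval of the mean ran from 0.24 to 0.99.

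Tgfb3, a ligand known from palate closure and tendon, showed the same order of arrays. Its processed signals were 8748 and 13831 in male control and cDKO RNA, and 7498 and 9352 in female control and cDKO RNA. The log2 ratio was 0.68 in the male and 0.34 in the female comparison, with a mean of 0.51 ± 0.24 (SD, n = 2). It was not called (limma adjusted p = 0.125; 95% interval 0.15 to 0.87).

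The array holds 10 spots each for the probes of Tgfb1 and Tgfb3, which show the error of measuring the same RNA again. For Tgfb1 the spots ranged from 0.73 to 0.95 on the male array and from 0.34 to 0.40 on the female array. Those of Tgfb3 ranged from 0.61 to 0.75 and from 0.31 to 0.37. The spots of the arrays did not overlap for either gene, and every ratio was above 0. The SD over spots was at most 0.069, below the SD between arrays. Spots are repeat readings and not replicates of the genotype.

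**Figure D2:**
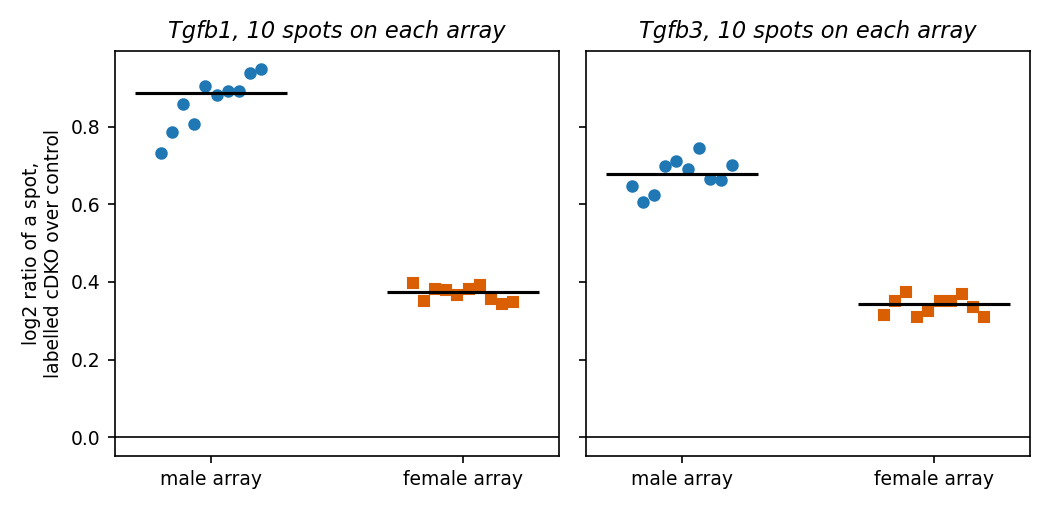
Log2 ratio of RNA labelled cDKO over control in each of the 10 spots of the Tgfb1 probe and of the Tgfb3 probe, on the male array (circles) and the female array (squares), with the median as a line. Within an array the spots lie close together, and the male spots lie above the female spots for both genes.

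Among the latency proteins, Ltbp2 had the highest ratio of all members. LTBP2 is a matrix protein of elastic microfibrils that, unlike its relatives, does not bind latent TGF-beta. Its processed signals were 2097 in male control and 4191 in male cDKO RNA, and 1707 in female control and 2679 in female cDKO RNA. The log2 ratio was 0.96 in the male and 0.64 in the female comparison, with a mean of 0.80 ± 0.23 (SD, n = 2; limma adjusted p = 0.0106). The probe lies on chromosome 12, 86124167 to 86124226, minus strand, on mm9.

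Ltbp1, whose product anchors the latent ligand in the matrix, was not called. Its processed signals were 3320 and 4571 in male control and cDKO RNA, and 2609 and 3397 in female control and cDKO RNA. The log2 ratios of 0.49 and 0.41 lay close together, with a mean of 0.45 ± 0.060 (SD, n = 2; limma adjusted p = 0.169; 95% interval 0.10 to 0.80). Its probe lies on chromosome 17, 75790530 to 75790589, plus strand, on mm9.

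**Figure D3:**
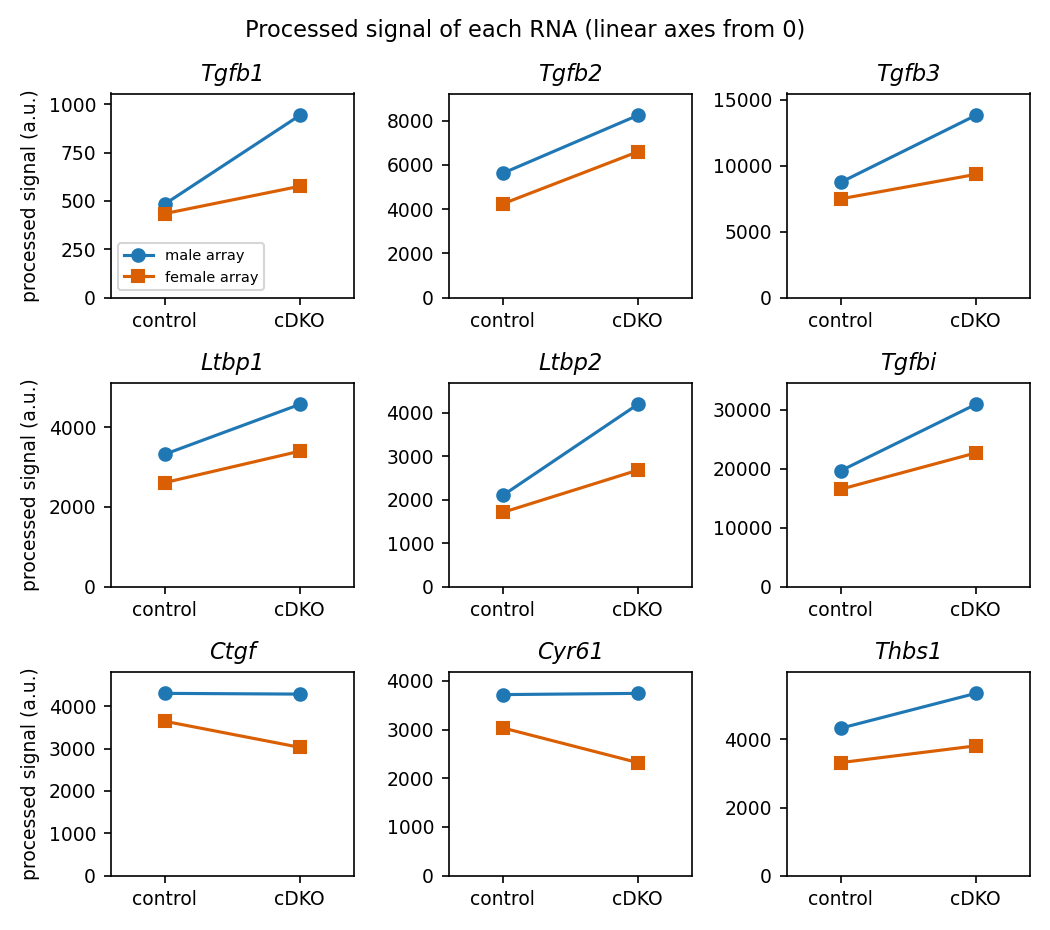
Processed signal, in arbitrary units on linear axes that start at 0, of each gene in control RNA and in RNA labelled cDKO, for the male array (circles) and the female array (squares). For 7 genes both lines rise, while Ctgf and Cyr61 are level on the male array and lower in cDKO RNA on the female array; levels of different genes are not comparable.

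The response genes were not called. Tgfbi, which encodes a cell adhesion protein of the matrix named for its induction by TGF-beta, had processed signals of 19652 and 30921 in male control and cDKO RNA. In females they were 16525 and 22686. The cDKO RNA was brighter on both arrays, with log2 ratios of 0.63 and 0.47 and a mean of 0.55 ± 0.12 (SD, n = 2; limma adjusted p = 0.0815; 95% interval 0.20 to 0.90). Its probe lies on chromosome 13, 56740460 to 56740519, plus strand, on mm9.

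Thbs1 had processed signals of 4329 and 5352 in male control and cDKO RNA, and of 3319 and 3812 in female control and cDKO RNA. Its log2 ratios were 0.33 and 0.18, with a mean of 0.26 ± 0.11 (SD, n = 2; limma adjusted p = 0.507). The 95% interval, from -0.092 to 0.61, includes 0 and also the ratio of Tgfb3. Its probe lies on chromosome 2, 117952585 to 117952644, plus strand, on mm9.

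Ctgf and Cyr61, both of the CCN family of matricellular proteins, had means below 0. Processed signals of Ctgf were 4301 and 4284 in male control and cDKO RNA, and 3644 and 3028 in female control and cDKO RNA. After loess the arrays lay on opposite sides of 0, with log2 ratios of 0.027 and -0.27 and a mean of -0.12 ± 0.21 (SD, n = 2; limma adjusted p = 0.837). The 95% interval ran from -0.48 to 0.24. With the processed signals and in the deposited value table both arrays lay below 0, at -0.0058 and -0.27. Under median centring in place of loess the mean was 0.079, so its sign depends on the processing. Its probe lies on chromosome 10, 24318281 to 24318340, plus strand, on mm9.

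Cyr61 was also lower in cDKO RNA on the female array. Processed signals were 3717 and 3742 in male control and cDKO RNA, and 3034 and 2321 in female control and cDKO RNA. The male array showed nearly equal levels and the female array a lower level in cDKO RNA, with log2 ratios of 0.076 and -0.36. The mean was -0.14 ± 0.31 (SD, n = 2; limma adjusted p = 0.796; 95% interval -0.51 to 0.22), and 0.061 under median centring. Its probe lies on chromosome 3, 145310187 to 145310246, minus strand, on mm9.

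The calls changed with the processing, while the ratios could change in only some of the alternatives. With the scanner program's processed signals neither Ltbp2 nor Tgfb2 kept its call (limma adjusted p of 0.164 and 0.274; log2 ratios of 0.82 and 0.59), where 1.47% of all genes were called in either direction. Both were also lost under median centring (0.164 and 0.499) and in the authors' deposited value table (0.370 and 0.405). Tgfb2 alone was lost with a background offset of 0 (0.0757) and without the filter on dim probes (0.0536). In contrast, Tgfb1 was called when both channels had to be well above background (0.0368), with the mean of a gene's probes (0.0436) and with robust variances (0.0370), and Tgfb3 (0.0270) and Tgfbi (0.0119) were called with an intensity trend. The sign of the mean was the same in all 10 alternatives with a test for every member except Ctgf and Cyr61, which turned under median centring. Much of that was fixed in advance. The filters, the intensity trend, robust variances and Aquantile normalization after loess left each member's ratio unchanged. Averaging a gene's probes altered only Tgfb2, and the deposited table repeated the ratios of the processed signals. On the female array alone Tgfbi was at -0.048 under median centring.

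**Figure D4:**
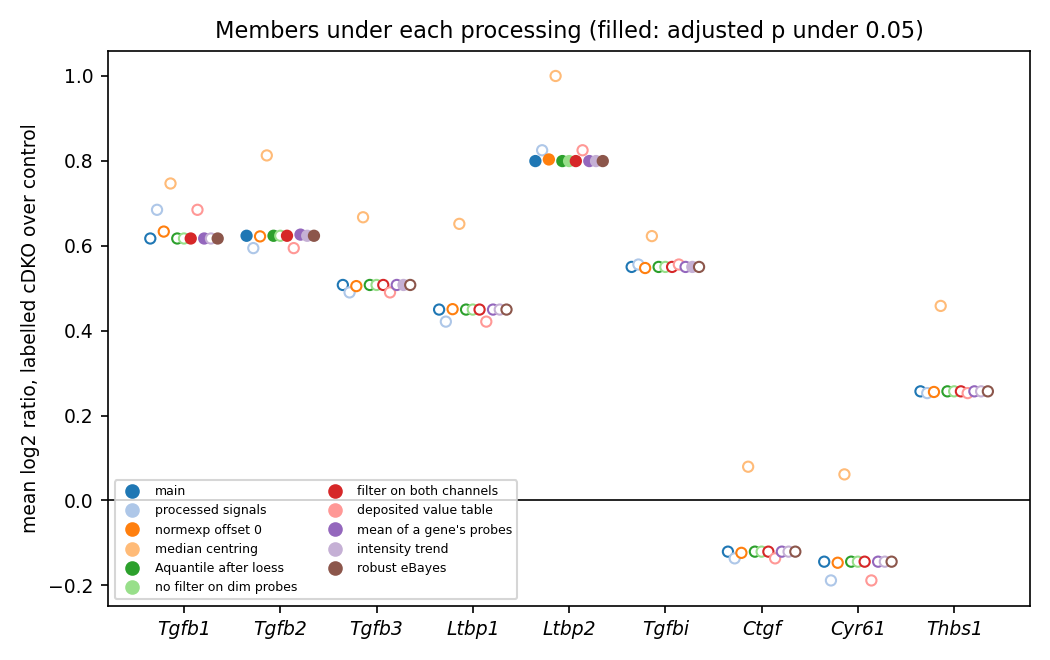
Mean log2 ratio over both arrays of each gene under the main processing and the 10 alternatives with a test, filled where the adjusted p was under 0.05. Several alternatives leave a ratio unchanged by design. The other values of a gene lie close together except under median centring, and the filled points are those of Ltbp2, Tgfb2, Tgfb1, Tgfb3 and Tgfbi.

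Other genes of the pathway were described in 9 lists with 91 measured genes, of which 12 (13.2%) were called higher and 0 lower. Of all genes, 2.18% were called higher and 2.27% lower. The lists were chosen with earlier results of these data known, so the higher share is no independent evidence. Col1a1, Col1a2, Col3a1 and Dcn, all among the 12, are also in the list of fibroblast markers. The 91 genes had a median log2 ratio of 0.22, against 0.0045 over all genes. In bulk RNA, fewer cells of a type and less RNA per cell cannot be told apart. With the processed signals 2 genes were called higher and 1 lower.

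Genes that hold or release latent TGF-beta had a median log2 ratio of 0.29, with 1 of 11 called. Above 0 on both arrays were 9 of the 11. The integrin subunits Itgav and Itgb6 were not, at -0.70 and -0.43 in the male and 0.37 and 0.013 in the female comparison. Ltbp4, a binding protein of elastic fibres, rose by 0.76 ± 0.20 (SD, n = 2; limma adjusted p = 0.0141), a call lost with the processed signals (0.170). Not called were Ltbp3, a binding protein close to Ltbp1, at 0.53, Fbn1, the fibrillin to which such proteins attach, at 0.51, and Furin, the protease that cuts the ligand precursors, at 0.96 in the male and 0.16 in the female comparison.

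Of 9 receptor genes 1 was called, and their median was 0.13. Eng, encoding the co-receptor endoglin of endothelium, rose by 0.73 ± 0.33 (SD, n = 2; limma adjusted p = 0.0241; 0.226 with the processed signals). The ligand-binding receptor Tgfbr2 was at 0.35, its partner Tgfbr1 at -0.25 and the endothelial receptor Acvrl1 at 0.32, none of them called. Endothelial markers were measured beside them: 2 of 10, Plvap at 0.97 and Cdh5 at 0.68, were called higher, and Tie1 stood at 0.38. Their summed processed signal was 40975 and 52906 in male control and cDKO RNA and 30865 and 36704 in female control and cDKO RNA, and its part in the ratio of Eng was not tested.

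SMADs and their regulators gave 0 of 13 calls and a median of 0.22. The corepressor Ski was at 0.59, the inhibitory Smad7 at 0.55, Pmepa1, a membrane protein that holds back SMADs, at 0.52 and Tgif2, another corepressor, at 0.47. Other negative regulators, named after their values were seen, were Smurf1 at 0.33, Ldlrad4 at 0.29 and Tgif1 at 0.13. Smurf2 and Skil had means of 0.00099 and -0.046, with arrays on opposite sides of 0. Smurf2 was at -0.31 in the male and 0.31 in the female comparison, and Skil at -0.31 and 0.22. The male ratio exceeded the female ratio in Ski, Smad7, Pmepa1 and Tgif2, for example 0.97 and 0.12 in Smad7.

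The other response genes held most of the calls, 7 of 16, all higher, with a median of 0.43. Lox, which crosslinks collagen and elastin, rose by 1.32 ± 0.13 (SD, n = 2; limma adjusted p = 0.000112) and Col1a2, a chain of collagen I, by 1.22 ± 0.33 (0.000432). Col1a1, its partner chain, rose by 1.27, with 1.87 in the male and 0.67 in the female comparison, and Fn1, fibronectin, by 1.11 ± 0.37. Snai1, a transcriptional repressor, Eln, elastin, and Col3a1, collagen III, were the further calls, at 1.01, 0.70 and 0.66. Of the 7, Lox and Col1a2 kept their calls with the processed signals.

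Activins and antagonists gave 2 calls among 9 genes, with a median of 0.28. Dcn, decorin, a proteoglycan that binds TGF-beta, rose by 0.84 ± 0.068 (SD, n = 2; limma adjusted p = 0.00597) and Inhbb, an activin subunit, by 0.66 ± 0.33 (0.0444). Inhba, the other activin subunit, was at -0.62 ± 0.29 and missed the threshold (0.0567), and Fstl1, a follistatin-like glycoprotein, was at 0.41. Dcn and Inhbb lost their calls with the processed signals (0.124 and 0.260), and Inhba was called lower when both channels had to be well above background (0.0333).

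Of 4 relatives of Ctgf and Cyr61, 1 was called. Nov, known as Ccn3, rose by 0.67 ± 0.099 (SD, n = 2; limma adjusted p = 0.0289; 0.230 with the processed signals). Not called were Wisp1 at -0.23, Wisp2 at -0.21 and Wisp3 at 0.27, the last not well above background in the female control RNA. Relatives of Thbs1 gave 0 of 3 calls, with Thbs2, a matricellular protein of connective tissue, at 0.55 (adjusted p = 0.0797) and Thbs3 at 0.080.

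Genes of YAP, TAZ and TEAD, the route that also controls Ctgf and Cyr61, gave 0 of 14 calls and a median of 0.15. Amotl2, a target and inhibitor of YAP, was at 0.39, Tead4, a DNA-binding partner, at 0.39 and Lats2, the kinase that restrains YAP, at 0.34. Ankrd1, a muscle-associated YAP target, was kept through the control RNA alone and was not well above background in cDKO RNA on either array. Its measured ratio was 1.44-fold lower there, a log2 ratio of -0.53 (95% interval -0.88 to -0.18), which is no lower bound. It was not called (limma adjusted p = 0.0917). Its call as lower with the processed signals (0.0360) rests on those background readings.

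Immediate early genes, which share with Ctgf, Cyr61 and Thbs1 a fast response to serum and handling, gave 0 of 12 calls. Their median was 0.51 in the male and -0.045 in the female comparison. Of the 12, 5 were above 0 on both arrays, among them Egr2 at 0.39, Dusp1 at 0.29, Junb at 0.27 and Ier3 at 0.22. The rest had arrays on opposite sides of 0. Examples are Fos at 0.84 in the male and -0.59 in the female comparison, Egr1 at 0.78 and -0.39, and Fosb at 0.65 and -0.50.

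**Figure D5:**
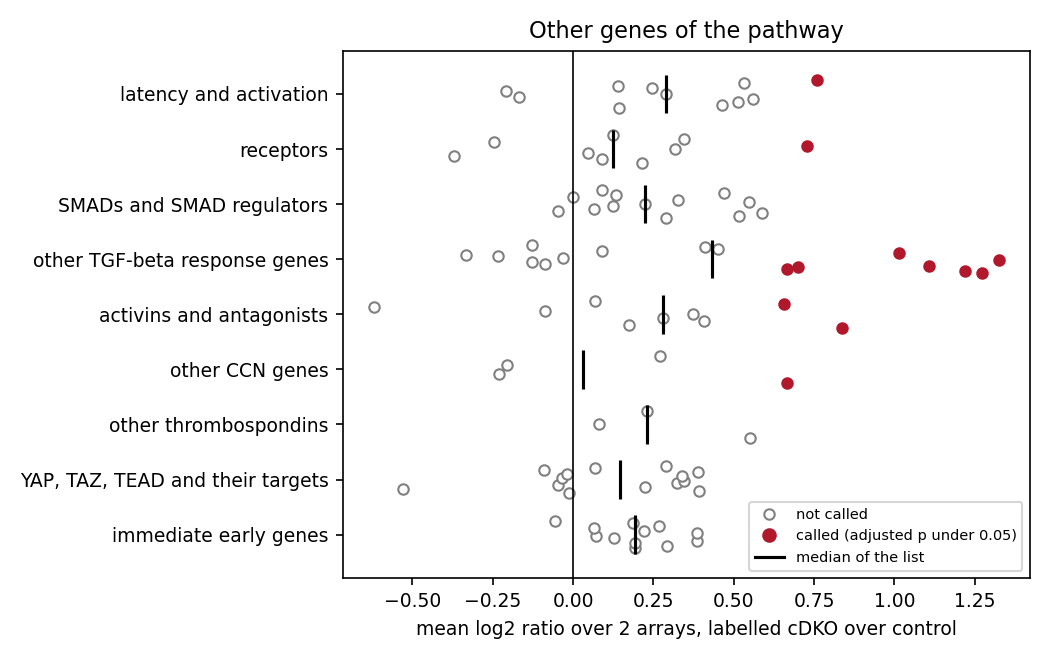
Mean log2 ratio over both arrays, labelled cDKO over control, of the 91 other pathway genes in 9 lists, filled where called at an adjusted p under 0.05, with the median of each list as a line. The 12 filled points all lie above 0, and 7 of them are in the list of other response genes.

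Markers of the cell types in the ureter and its surroundings moved beside the members. Fibroblast and adventitia markers, some of which are also in the list of response genes, were higher for 8 of 10, with a summed processed signal of 277856 and 567875 in male control and cDKO RNA and 246562 and 489532 in female control and cDKO RNA. Fbln1, a matrix protein of such cells, rose by 1.13 (limma adjusted p = 0.000820). Smooth muscle markers were lower for 9 of 10, with Tagln at -2.75, and their sum was 600746 and 117055 in male control and cDKO RNA and 365747 and 72144 in female control and cDKO RNA. The part of either shift in the members' ratios was not tested.

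Markers of blood and neighbouring tissues were measured too. Macrophage and leukocyte markers gave 0 of 10 calls, with Cd68 at -0.27, Tyrobp at -0.24 and Mrc1 at -0.12, and a summed processed signal of 48226 and 47229 in male control and cDKO RNA and 40743 and 33895 in female control and cDKO RNA. Platelet markers gave 1 of 7, Ppbp at 0.70, with Gp1bb at 0.33 and Gp9 at 0.29 and a median of 0.25. Pf4, the brightest of them, was at 0.24 in the male and -0.086 in the female comparison. Red blood cell markers gave 1 of 7, Slc4a1 at 0.62. All 7 red blood cell markers were above 0 on both arrays, with a median of 0.50 and a summed processed signal of 124761 and 211210 in male control and cDKO RNA and of 122850 and 171097 in female control and cDKO RNA. Kidney markers were higher for 6 of 8, led by Cdh16 at 2.45, Lhx1 at 2.06 (not well above background in the female control RNA) and Six2 at 1.86. Their sum was 4126 and 11537 in male control and cDKO RNA and 4384 and 5385 in female control and cDKO RNA. The largest signal in each sum was that of Cited1, which was not called. It was 3116 and 5139 in male control and cDKO RNA and 3189 and 2275 in female control and cDKO RNA. Cartilage markers were higher for 2 of 6, Col2a1 at 1.29 and Col9a1 at 1.04, with a median of 0.18 over the list. Sox9 went the other way on the male array, at -1.01, and was at 0.094 in the female comparison. The part of these cells in the members' ratios was not tested.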

How the data were processed

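Per the file headers, Agilent Feature Extraction 10.7.3.1 quantified each array. It wrote the deposited mean and local background intensity, a processed signal intensity that is background-subtracted and dye-normalized, a log10 ratio of red over green, and flags of 0 or 1. The value table the authors deposited holds a score whose scale is not stated. For spots with both processed signals above 50 it equalled the signed fold of labelled cDKO over control, within 0.001 log2 for 100% of 27783 and 26786 spots. Its column medians were 1.

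Mean intensities were corrected by normexp (offset 50) and loess within arrays (limma 3.58.1, R 4.3.3), with control and outlier spots at weight 0. Spots of a probe were averaged. Probes well above background in the cDKO RNA on both arrays, or in the control RNA on both, were kept, 29274 of 39429. Symbols came from the RefSeq accession for 26412 probes and from the files for 13017. Genes were represented by their brightest probe. Log2 ratios were turned to cDKO over control and tested with lmFit and eBayes (two-sided, 1 residual and 13.9 prior degrees of freedom, Benjamini-Hochberg over probes, checked on simulated data). With 2 arrays an exact sign-flip test cannot go below 0.5. Values are mean ± SD. Members and lists were chosen with earlier results of these data known. Genes named are the members, up to 4 of each pathway list and up to 3 of each marker list with the largest ratio and equal direction on both arrays, and Tbx2, Tbx3 and Tbx18. Snai1, Eln and Col3a1 complete a count. The further negative regulators of SMADs, Itgav, Itgb6, Fos, Fosb, Egr1, Pf4, Sox9 and Cited1 were named after their values were seen. Xist, Ddx3y and Eif2s3y check the labels of sex. The marker lists of urothelium (Krt14 lower at -0.71, 1 of 10 called), neurons and Schwann cells (0 of 6) and mesothelium (0 of 4) were also measured. The alternatives are given in the closing section.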

Additional observations from a re-analysis of the deposited data

Results flagged for a closer look

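Among the members and the medians of the pathway lists, 3 had the male and the female array on opposite sides of 0, which was not tested, since each sex has 1 array. Ctgf differed by 0.29 log2 (0.027 in the male and -0.27 in the female comparison) and Cyr61 by 0.44 (0.076 and -0.36). With the processed signals both ratios of Ctgf lay below 0 (-0.0058 and -0.27). The median of the immediate early genes differed by 0.56 (0.51 and -0.045).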

How the results depend on the processing

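Against 2 members called higher, 0 were called with the processed signals (1.47% of all genes called in either direction), under median centring (1.37%) and in the deposited value table, 1 with normexp offset 0 (3.89%), 1 without a filter on dim probes (2.61%) and 4 with an intensity trend (6.83%), against 4.45% in the main processing. The other 4 alternatives gave 2 or 3, and none of the 10 called a member lower. Of the other pathway genes, 12 called higher became 2 with the processed signals, 4 under median centring and 0 in the deposited value table, where limma called 0 of all genes although 2434 had an unadjusted p under 0.05. At that unadjusted threshold the members numbered 6 there. Against 0 pathway genes called lower, 1 was called with the processed signals, offset 0 and an intensity trend (Ankrd1, not well above background in cDKO RNA) and 1 with the filter on both channels, the mean of a gene's probes and robust eBayes (Inhba). Ctgf and Cyr61 turned to 0.079 and 0.061 under median centring, which set the median of all genes at 0.22 on the male array. The members' median was 0.37 to 0.63 when either replicate was left out, as a value with no test. Over the other alternatives, several of which cannot change a ratio, the median was 0.49 to 0.65. The causes were not tested. The test is itself paired, since each array sets cDKO against control RNA. No paired analysis was possible beyond it because an array gives 1 ratio. The number of arrays limits the precision.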
